A study of Mus musculus with 21 samples.

Results

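Transcripts of 10 genes that make, sense or limit transforming growth factor beta (TGFB) were followed in activated mouse spleen cells that had or had not been given TGFB. The set holds the ligand genes Tgfb1 and Tgfb3, the receptor genes Tgfbr1, Tgfbr2 and Tgfbr3, the latency gene Ltbp3, the receptor antagonist Bambi, the ubiquitin ligase genes Smurf1 and Smurf2, and the TGFB-inducible gene Klf10. Each gene was taken as the array's transcript cluster annotated to that symbol alone. All 10 of the 10 symbols had a cluster of their own, among 14860 genes that carried 1 symbol, so no member was dropped and no choice among clusters was needed.

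TGFB is secreted in a latent complex, and once released it binds the type II receptor, which recruits and phosphorylates the type I receptor. The type I receptor then phosphorylates SMAD proteins that enter the nucleus and switch genes on and off, among them genes whose products restrain the pathway. In CD4 T cells, TGFB given during activation induces the regulatory T cell factor Foxp3, and T cells themselves are a source of the Tgfb1 ligand.

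The data came from 21 Affymetrix mouse exon arrays, each hybridised with the total RNA of a sample of cells sorted out of spleen cultures. All mice were Marilyn mice, whose CD4 T cells carry a transgenic T cell receptor for HY, an antigen of male cells. Reporter cells came from Marilyn mice labelled Foxp3hCD2, in which human CD2 (hCD2) marks cells that express Foxp3, and knockout cells came from Marilyn mice labelled Foxp3-/-. There were 5 arrays each of untreated reporter cells (HY-activated, labelled CD4+CD2), of hCD2-positive cells from TGFB-treated reporter cultures (sorted as CD4+hCD2+) and of hCD2-negative cells from those cultures (sorted as CD4+hCD2-). There were 3 arrays each of untreated and of TGFB-treated knockout cells, both labelled CD4+CD2. Only the TGFB-treated reporter cells were labelled as split by hCD2. Comparisons of a fraction with untreated cells thus mix TGFB with the sort, which cannot be told apart here. Likewise, a fraction's response minus that of knockout cells mixes the sort with genotype. The sample titles call the cells of all 5 groups activated, and they name HY or HYT only for the reporter groups. The labels used here give neither the age of the mice nor the dose or duration of TGFB. A study number divides the arrays: number 1 covers reporter replicates 1 to 3, and number 2 covers the knockout arrays and reporter replicates 4 and 5. Replicates are called biological, but no animal or culture is named for any of them. The p-values below therefore measure only how far these samples spread, which may be technical.

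Several features of the arrays bear on every value below. Values are log2 signals normalized by the authors, and the lower quartile of an array was 4.93 to 5.02 in the 15 reporter arrays but 5.61 to 5.68 in the 6 knockout arrays. Levels were therefore not compared between genotypes. The interquartile range was under 2.5 on 4 of 15 reporter arrays (replicates 1, 3 and 4 of the hCD2-negative and replicate 3 of the hCD2-positive group) and on 3 of 6 knockout arrays (untreated replicates 1 and 2 and TGFB replicate 1). These are called narrow arrays here. Changes are given on the deposited values, and for the genes named below a value after quantile normalization of all arrays is added where that moved a call. The median change of all genes was -0.07 (log2) in hCD2-positive and -0.09 in hCD2-negative against untreated reporter cells on the deposited values, and 0.04 and 0.05 after quantile normalization. No member lay below the lower quartile of all 23332 clusters on any array. Ranked among the 14860 tested genes alone, Tgfb3 reached percentile 23.5 on its lowest array.

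The sorted cells carried T cell transcripts. All 8 measured CD4 T cell markers had group means above the lower quartile in every group, and their mean level was 9.41 to 10.96 over all arrays. The lower quartile alone does not set T cells apart. In every reporter group 6 of 6 stromal and platelet and 4 of 5 measured B cell markers also lay above it. B cell markers averaged 5.41 to 5.85 in reporter and 6.18 to 6.44 in knockout cells, and dendritic cell and macrophage markers 4.74 to 5.10 and 5.64 to 5.82. NK cell markers averaged 5.67 to 6.76 in reporter and 6.36 to 7.46 in knockout cells, granulocyte markers 5.08 to 5.62 and 5.69 to 6.04, and stromal and platelet markers 6.02 to 6.47 and 6.80 to 7. In these other-cell lists, apart from CD8, the only gene called on the deposited values in any comparison of TGFB with untreated cells was Eomes, lower in all 3. Klrd1, which encodes the NK cell receptor chain CD94, was 6.23 to 9.10 in untreated, 8.43 to 10.21 in hCD2-negative and 6.92 to 9.27 in hCD2-positive reporter cells, and 6.86 to 9.18 untreated and 10.24 to 10.73 with TGFB in knockout cells. Its changes of 1.38 in hCD2-negative (adjusted p = 0.0571) and 2.31 in knockout cells (adjusted p = 0.0613) missed the threshold and passed after quantile normalization (1.84, adjusted p = 0.00236, and 2.56, adjusted p = 0.0023). In hCD2-positive cells it differed by 0.08 (adjusted p = 0.939). Quantile normalization also called the B cell gene Cd79b higher in hCD2-positive and knockout cells (0.40 and 0.69) and the macrophage gene Adgre1 lower in hCD2-negative cells (-0.23). The cluster that Foxp3 shares with its neighbour Flicr was 5.95 to 6.54 in untreated, 6.35 to 7.08 in hCD2-negative and 9.23 to 11.68 in hCD2-positive reporter cells. In knockout cells that cluster went from 6.80–7.17 untreated to 8.26–8.90 with TGFB (log2 fold change 1.61 ± 0.34 SE, limma adjusted p = 0.0175). The sources used here do not say where the knockout allele is cut, so this cluster checks nothing about the knockout. Cd8a, a chain of the CD8 co-receptor, was 5.81 to 6.69 in untreated, 7.68 to 9.93 in hCD2-negative and 6.12 to 7.60 in hCD2-positive reporter cells, and 6.60 to 7.25 untreated and 8.72 to 9.67 with TGFB in knockout cells. It was called higher in hCD2-negative cells (2.44, limma adjusted p = 6.82e-06) and in knockout cells (2.47, adjusted p = 0.000386). Between the fractions it was called as well (hCD2-positive minus hCD2-negative -1.76, adjusted p = 0.00583). Its difference of 0.69 in hCD2-positive cells (adjusted p = 0.117) passed after quantile normalization (0.84, adjusted p = 0.0212). The other chain, Cd8b1, fell by 0.95 in hCD2-positive cells (adjusted p = 0.00416) and by 0.74 in hCD2-negative cells (adjusted p = 0.0152), and the latter was lost after quantile normalization (-0.25, adjusted p = 0.165). The part of Cd8a or Klrd1, or of cells that carry them, in the results below was not tested.

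The promoters of a ligand, a receptor and a regulator gene, those with the largest changes between untreated and TGFB cells among members with a RefSeq window, are shown, since the factors that TGFB signalling acts through bind DNA at short motifs. Each line holds the 250 bases before the annotated start, 5′ to 3′ on the gene's strand, from RefSeq (assembly GRCm38.p6, which is not the build of the arrays' annotation, mm8). Capitals mark CAGAC, a core bound by SMAD proteins, and GGGCGG, the GC box bound by Sp1-like factors, on either strand.
Tgfb1 chr7:25686752-25687001, plus strand: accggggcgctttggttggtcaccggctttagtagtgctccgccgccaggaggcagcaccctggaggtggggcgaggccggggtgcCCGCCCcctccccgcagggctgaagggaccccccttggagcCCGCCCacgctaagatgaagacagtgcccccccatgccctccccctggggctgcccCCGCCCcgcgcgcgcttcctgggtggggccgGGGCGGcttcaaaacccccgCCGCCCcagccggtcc
Tgfbr2 chr9:116175364-116175613, minus strand: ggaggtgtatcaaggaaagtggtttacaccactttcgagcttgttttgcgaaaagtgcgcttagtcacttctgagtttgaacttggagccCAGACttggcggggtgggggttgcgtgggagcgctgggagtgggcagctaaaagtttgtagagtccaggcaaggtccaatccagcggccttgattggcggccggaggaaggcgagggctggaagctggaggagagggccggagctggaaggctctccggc
Smurf2 chr11:106920716-106920965, minus strand: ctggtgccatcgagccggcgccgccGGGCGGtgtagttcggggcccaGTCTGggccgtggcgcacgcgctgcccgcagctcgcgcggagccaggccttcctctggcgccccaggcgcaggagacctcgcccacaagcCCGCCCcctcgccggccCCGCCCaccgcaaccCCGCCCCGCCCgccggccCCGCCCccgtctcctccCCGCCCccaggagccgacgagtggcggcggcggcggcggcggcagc
The Tgfb1 window held 0 CAGAC and 5 GGGCGG matches and was 75.2% G or C. The Tgfbr2 window held 1 CAGAC match, from 160 to 156 bases before the start, and 0 GGGCGG matches, and was 58.4% G or C. The Smurf2 window held 1 CAGAC match, from 203 to 199 bases before the start, and 7 GGGCGG matches, of which the pair at 81 to 76 and 76 to 71 share a base, and was 82.0% G or C. No base lay in both motifs in these windows. Across 32851 RefSeq promoters of the same length, 42.2% held CAGAC, 32.7% held GGGCGG and 6.7% held TGANTCA, the AP-1 motif, which none of the 3 windows held. The median promoter was 52.4% G or C. RefSeq windows were found for 6 of the 10 members. A match is a description of these letters and not a site.

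The ligand gene Tgfb1, which encodes the main TGFB of immune cells, was lower in both TGFB-treated reporter fractions than in untreated cells. In untreated reporter cells its log2 signal was 10, 10.07, 10.22, 10.80 and 9.56 in replicates 1 to 5. It was 8.68, 9.20, 8.57, 9.25 and 9.61 in hCD2-negative cells, and 9.37, 9.50, 8.48, 9.77 and 9.53 in hCD2-positive cells. All untreated values but that of replicate 5 lay above every value of both TGFB fractions, and replicate 5 lay inside their ranges. Tgfb1 fell to 0.477 of its untreated level in hCD2-negative cells (log2 fold change -1.07 ± 0.25 SE, limma adjusted p = 0.00549). In hCD2-positive cells it fell to 0.574 of that level (-0.80 ± 0.25, adjusted p = 0.0426). The fall in hCD2-negative cells was past the threshold on omission of any of the 21 arrays, with values from -1.30 to -0.95. The fall in hCD2-positive cells missed it in 13 of 21 such omissions: untreated replicates 1 to 4, hCD2-positive replicates 3 to 5, hCD2-negative replicates 1 and 4, untreated knockout replicate 1 and TGFB knockout replicates 1 to 3. Over the 21 omissions it ranged from -1.03 without untreated replicate 5 (adjusted p = 0.0047) to -0.62 without the narrow hCD2-positive replicate 3 (adjusted p = 0.125). It also missed the threshold without the study term (adjusted p = 0.0761), with all clusters tested (adjusted p = 0.057) and with the compared groups alone (adjusted p = 0.107). After quantile normalization both falls were smaller, -0.58 (adjusted p = 0.00662) and -0.46 (adjusted p = 0.0327). Without the narrow reporter arrays neither passed, at -0.74 (adjusted p = 0.163) in hCD2-negative and -0.61 (adjusted p = 0.118) in hCD2-positive cells. In bulk RNA of this kind, a smaller share of cells that express a gene and less RNA per cell cannot be told apart.

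In knockout cells Tgfb1 was 10.61, 10.08 and 11.22 untreated and 9.93, 10.11 and 9.97 with TGFB. The groups overlapped by the untreated value of replicate 2, and the change did not pass (-0.63 ± 0.32, adjusted p = 0.491). The response of hCD2-positive reporter cells minus that of knockout cells was -0.17 (95% interval -1.01 to 0.68), and that of hCD2-negative cells minus knockout -0.43 (-1.28 to 0.41), so that neither a smaller nor an equal response in knockout cells was shown. The hCD2-positive and hCD2-negative fractions differed by 0.27 (-0.25 to 0.79), within the spread between arrays.

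Tgfb3, the ligand gene best known from palate and tissue development, showed no change past the threshold. It was 5.53 to 6.13 in untreated replicates 1 to 4 and 7.45 in replicate 5, and 5.27 to 5.83 and 5.38 to 5.65 in the hCD2-negative and hCD2-positive fractions. The untreated mean of 6.12 ± 0.78 (SD, n = 5) thus rested on replicate 5, and the differences of -0.53 ± 0.32 and -0.61 ± 0.32 did not pass (adjusted p = 0.261 and 0.241). In knockout cells it was 6.56, 6.81 and 8.16 untreated and 7.05, 7.29 and 8.10 with TGFB, where the ranges overlapped and the change of 0.30 ± 0.41 did not pass (adjusted p = 0.963).

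**Figure D1:**
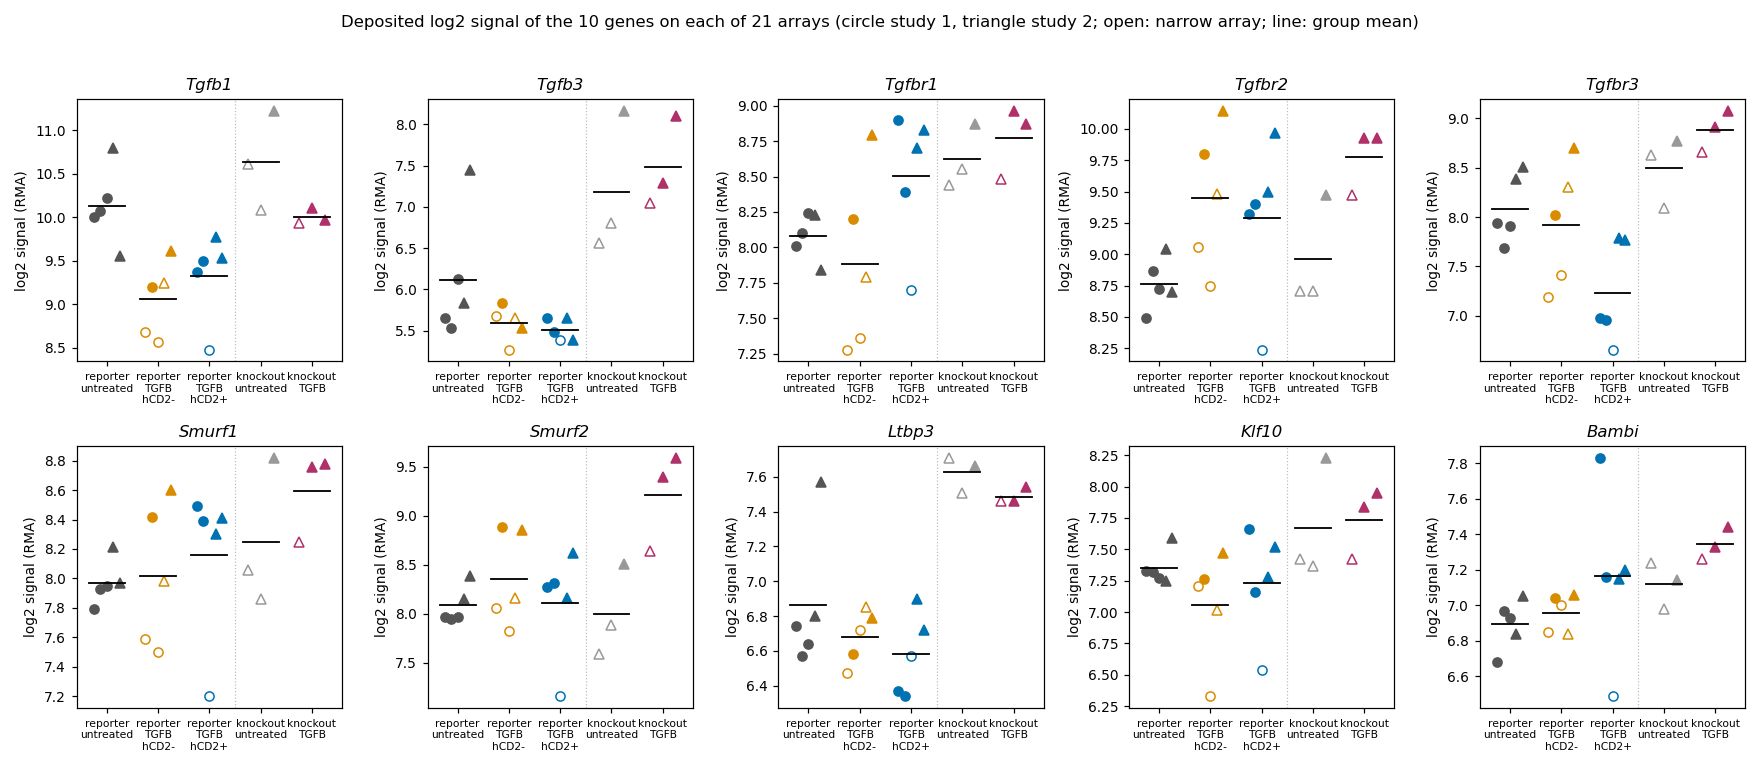
Deposited log2 signal (y axis, a scale per panel) of the 10 genes on each of the 21 arrays, by group, with study 1 as circles, study 2 as triangles, narrow arrays open and the group mean as a line. Tgfb1 lies lower in the TGFB reporter fractions than in 4 of the 5 untreated arrays, Tgfbr3 is lowest in hCD2-positive cells, and the narrow arrays hold the lowest values of many panels.

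The receptor genes did not move together. Tgfbr3 encodes betaglycan, a co-receptor that presents ligand to the signalling receptors. It was lower in hCD2-positive cells, the fraction that expresses Foxp3, than in untreated cells. Tgfbr3 was 7.94, 7.69, 7.91, 8.38 and 8.51 in untreated reporter cells and 6.98, 6.96, 6.66, 7.79 and 7.77 in hCD2-positive cells. Within study 1 and within study 2 every hCD2-positive value lay below every untreated value, as it did for 10.9% of all genes. Across the studies the groups overlapped, because Tgfbr3 was 0.82 higher (log2) in study 2 than in study 1 (adjusted p = 0.000383). Tgfbr3 fell to 0.553 of its untreated level in hCD2-positive cells (-0.85 ± 0.16, 95% interval -1.19 to -0.52, adjusted p = 0.00154). This fall was past the threshold on omission of each of the 21 arrays, with values from -0.91 to -0.79, and after quantile normalization (-0.50, adjusted p = 0.00566). It missed the threshold without the study term (-0.85, adjusted p = 0.0661). Within the studies alone, with 6 and 4 arrays of these groups, it was -0.98 (adjusted p = 0.0734) in study 1 and -0.67 (adjusted p = 0.245) in study 2.

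In hCD2-negative cells Tgfbr3 was 7.19, 8.02, 7.41, 8.30 and 8.70, which spanned the untreated range. Its change against untreated cells was -0.16 (95% interval -0.50 to 0.17, adjusted p = 0.501). The sign was opposite after quantile normalization (0.32, adjusted p = 0.0647) and without the narrow reporter arrays (0.20, adjusted p = 0.617), and neither passed. The fractions themselves differed by -0.69 ± 0.16 (hCD2-positive minus hCD2-negative). On the deposited values this missed the threshold over all genes (unadjusted p = 0.000397, adjusted p = 0.126), and after quantile normalization it passed (-0.82, adjusted p = 0.00128). In that comparison every hCD2-positive value lay below every hCD2-negative value within each study, which held for 0.410% of all genes in that direction. In knockout cells Tgfbr3 was 8.63, 8.09 and 8.77 untreated and 8.66, 8.91 and 9.07 with TGFB, a change of 0.38 ± 0.21 that did not pass (adjusted p = 0.549). After quantile normalization it passed as a rise (0.51, adjusted p = 0.0371). The response of hCD2-positive cells minus that of knockout cells was -1.24 (95% interval -1.78 to -0.69), and over all genes this difference did not pass either (adjusted p = 0.341, and 0.0533 after quantile normalization).

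Tgfbr2 encodes the type II receptor, the subunit that binds ligand first. Its values were 8.49, 8.87, 8.72, 9.04 and 8.70 in untreated reporter cells, 9.06, 9.80, 8.75, 9.48 and 10.14 in hCD2-negative cells, and 9.32, 9.40, 8.24, 9.50 and 9.97 in hCD2-positive cells. The TGFB values lay above the highest untreated value except in the narrow arrays hCD2-negative replicate 3 and hCD2-positive replicate 3. On the deposited values the changes were 0.68 ± 0.25 in hCD2-negative cells (95% interval 0.16 to 1.2, adjusted p = 0.0624) and 0.52 ± 0.25 in hCD2-positive cells (adjusted p = 0.194), and neither passed. After quantile normalization Tgfbr2 rose by 1.19 (adjusted p = 2.43e-07) and 0.89 (adjusted p = 8.49e-06), and each TGFB array lay above each untreated array, as for 6.10% of all genes in hCD2-negative and 4.44% in hCD2-positive cells. It also passed in both fractions without the narrow reporter arrays, at 1.18 (adjusted p = 0.00373) and 0.76 (adjusted p = 0.0102). In hCD2-positive cells, leaving out replicate 3 alone brought it past the threshold (0.74, adjusted p = 0.0377). In hCD2-negative cells it passed on omission of hCD2-negative replicate 3 (0.81, adjusted p = 0.0463), hCD2-positive replicate 3 or untreated knockout replicate 3 (adjusted p = 0.0211 and 0.0476).

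In knockout cells Tgfbr2 was 8.71, 8.71 and 9.47 untreated and 9.47, 9.93 and 9.93 with TGFB, so that the groups met at 9.47. The change was 0.81 ± 0.32 on the deposited values (adjusted p = 0.279) and 0.94 after quantile normalization (adjusted p = 0.000111), where the groups were 8.50 to 8.59 and 9.38 to 9.54 (14.5% of all genes were higher without overlap there). Without the narrow arrays, which left 1 untreated and 2 TGFB knockout arrays, it was 0.46 (adjusted p = 0.213). The knockout response differed from that of hCD2-positive cells by -0.29 (reporter minus knockout, 95% interval -1.14 to 0.56) and from that of hCD2-negative cells by -0.13 (-0.98 to 0.72). The fractions differed by -0.16 (hCD2-positive minus hCD2-negative, -0.68 to 0.36).

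Tgfbr1 encodes the type I receptor, the kinase that phosphorylates SMAD proteins. It was 8.01, 8.10, 8.24, 8.23 and 7.84 in untreated reporter cells, 7.28, 8.20, 7.36, 7.79 and 8.79 in hCD2-negative cells, and 8.90, 8.39, 7.70, 8.70 and 8.83 in hCD2-positive cells. The hCD2-positive values lay above all untreated values except in narrow replicate 3, while the hCD2-negative values lay on both sides of them. The change in hCD2-positive cells was 0.42 ± 0.24 on the deposited values (adjusted p = 0.286) and 0.77 after quantile normalization, which passed (adjusted p = 0.000567). It also passed without the narrow reporter arrays (0.61, adjusted p = 0.0196), but on omission of no single array (adjusted p from 0.127 to 0.477). The change in hCD2-negative cells did not pass on either scale, and it differed in sign between them (-0.20 ± 0.24 deposited, adjusted p = 0.584, and 0.29 quantile normalized, adjusted p = 0.144). The difference between the fractions was 0.62 ± 0.24 (hCD2-positive minus hCD2-negative, adjusted p = 0.897) and 0.48 after quantile normalization (adjusted p = 0.149), and passed on neither. In knockout cells Tgfbr1 was 8.44 to 8.87 untreated and 8.48 to 8.96 with TGFB (0.15 ± 0.31, adjusted p = 0.99).

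**Figure D2:**
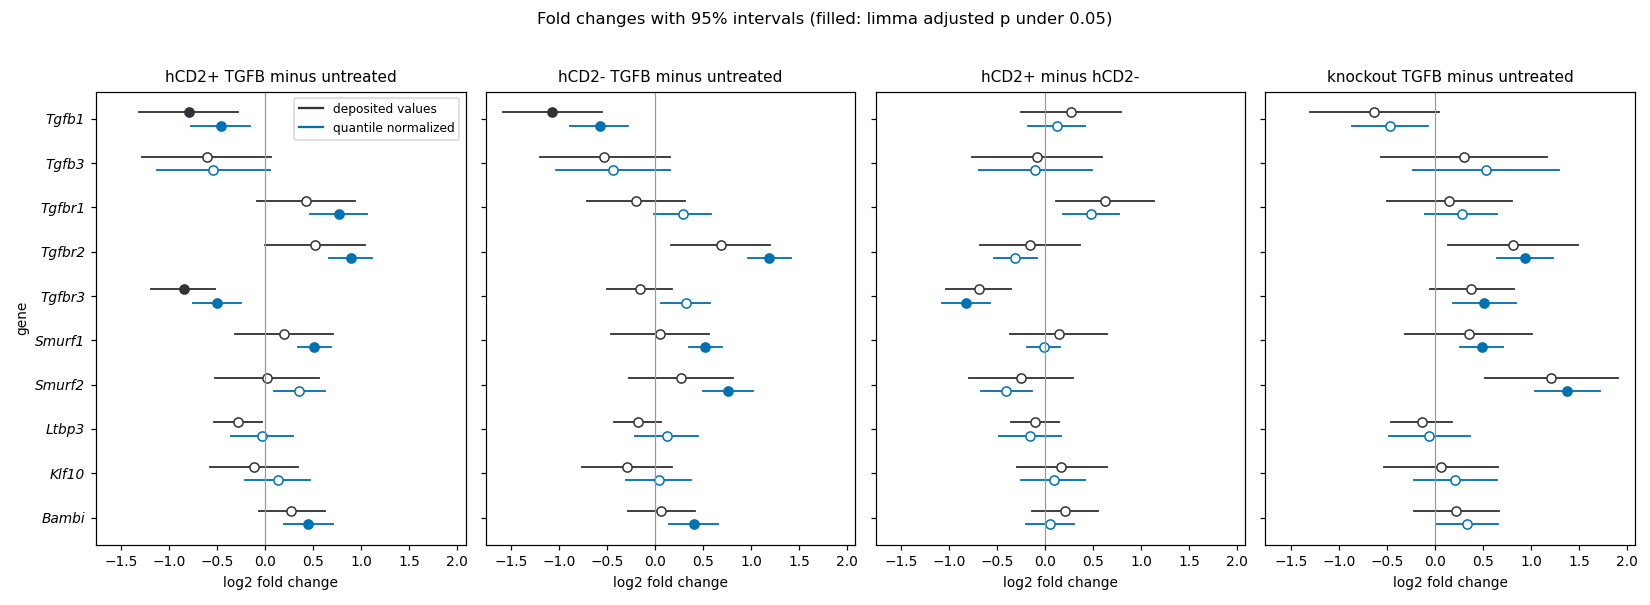
Log2 fold change (x axis) of each of the 10 genes with its 95% interval from limma, for 4 comparisons, on the deposited values (dark) and after quantile normalization (blue), filled where the adjusted p was under 0.05. Tgfb1 and Tgfbr3 lie below 0 in hCD2-positive against untreated cells on both scales, while Tgfbr2 lies above 0 in each comparison of TGFB with untreated cells and is filled only after quantile normalization.

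Tgfbr2 and Tgfb1 were set side by side within each array, a comparison chosen after their values were seen and given without a test. The difference of their log2 signals does not depend on a shift shared by all genes of an array, though a narrow range can still shrink it. The zero of this difference has no meaning, since different probes measure the genes. Tgfbr2 minus Tgfb1 was -1.51, -1.2, -1.50, -1.76 and -0.86 in untreated reporter cells. It was 0.38, 0.60, 0.18, 0.23 and 0.53 in hCD2-negative cells, and -0.05, -0.10, -0.24, -0.27 and 0.44 in hCD2-positive cells. The untreated arrays thus lay below all arrays of both fractions, narrow arrays included. In knockout cells the difference was -1.90, -1.37 and -1.75 untreated and -0.46, -0.18 and -0.04 with TGFB, again without overlap. The mean moved by 1.75 in hCD2-negative cells, by 1.32 in hCD2-positive cells and by 1.45 in knockout cells. Since the pair was chosen with Tgfb1 seen lower and Tgfbr2 seen higher, these separations follow in part from the choice. They add no support to the change of either gene, and no share of other gene pairs is given.

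**Figure D3:**
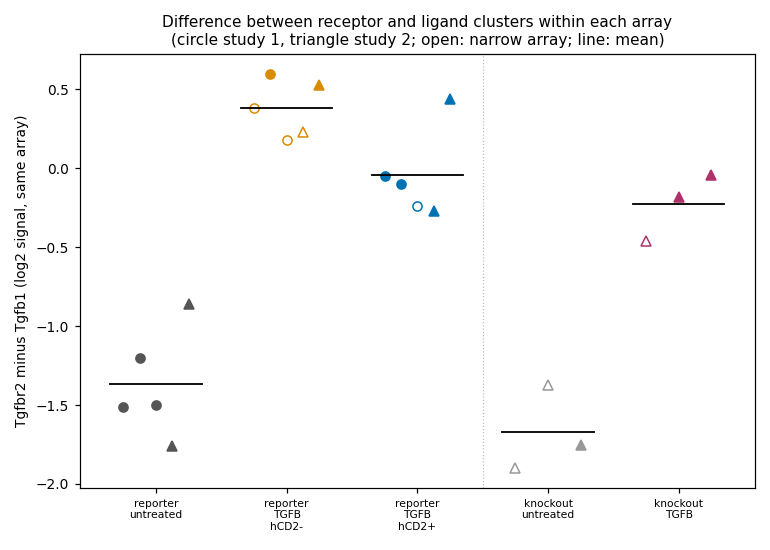
Difference between the log2 signals of Tgfbr2 and Tgfb1 within each of the 21 arrays (y axis), by group, with study 1 as circles, study 2 as triangles, narrow arrays open and the group mean as a line. The untreated reporter arrays lie between -1.76 and -0.86 and the TGFB reporter arrays between -0.27 and 0.60, while the knockout arrays lie between -1.90 and -1.37 untreated and between -0.46 and -0.04 with TGFB. The pair was chosen after its values were seen.

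Smurf2 and its relative Smurf1 encode ubiquitin ligases that, bound to inhibitory SMAD proteins, mark TGFB receptors for degradation. In knockout cells Smurf2 was 7.59, 7.88 and 8.51 untreated and 8.64, 9.39 and 9.59 with TGFB, without overlap, as 5.26% of all genes were in that direction. Its change was the largest of the 10 in that comparison, 1.21 ± 0.33 (95% interval 0.52 to 1.91), and missed the threshold (adjusted p = 0.0609). It passed after quantile normalization (1.38, adjusted p = 1.2e-05), without the dimmest genes, a share of 0.333 (adjusted p = 0.0426), without the narrow reporter arrays (adjusted p = 0.00905), and in 4 of 21 omissions of an array (untreated knockout replicate 3, TGFB knockout replicate 1, hCD2-negative replicate 2 or hCD2-positive replicate 3), with adjusted p from 0.0192 to 0.0399. In reporter cells Smurf2 was 7.97, 7.95, 7.97, 8.15 and 8.38 untreated, 8.06, 8.88, 7.82, 8.16 and 8.85 in hCD2-negative cells and 8.27, 8.31, 7.16, 8.16 and 8.62 in hCD2-positive cells. The 3 groups overlapped, with changes of 0.27 ± 0.26 (adjusted p = 0.485) and 0.02 ± 0.26 (adjusted p = 0.971). After quantile normalization Smurf2 rose in hCD2-negative cells (0.76, adjusted p = 0.000182) and not past the threshold in hCD2-positive cells (0.35, adjusted p = 0.0597). Without the narrow reporter arrays it passed in neither, at 0.76 (adjusted p = 0.0869) in hCD2-negative and 0.24 (adjusted p = 0.548) in hCD2-positive cells. The reporter response minus that of knockout cells was -1.19 ± 0.42 for hCD2-positive and -0.94 ± 0.42 for hCD2-negative cells, and neither difference passed (adjusted p = 0.998 and 0.902). Cd8a, given above, was higher in the same cells, knockout TGFB and hCD2-negative, as was Klrd1 after quantile normalization (2.56 and 1.84). The other measured genes of their lists were lower or flat there on the deposited values. In hCD2-negative and knockout cells Cd8b1 differed by -0.74 and -0.20, Eomes by -0.97 and -1.02, and Ncr1 by -0.02 and 0.02. The part of Cd8a and Klrd1 in the Smurf2 values was not tested.

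Smurf1 was 7.79, 7.93, 7.95, 8.21 and 7.97 in untreated reporter cells, 7.59, 8.42, 7.50, 7.98 and 8.60 in hCD2-negative cells and 8.49, 8.39, 7.20, 8.30 and 8.41 in hCD2-positive cells. In hCD2-positive cells all values but that of narrow replicate 3 were above the untreated ones. The deposited changes were 0.05 ± 0.24 in hCD2-negative and 0.19 ± 0.24 in hCD2-positive cells (adjusted p = 0.906 and 0.662). After quantile normalization both passed as rises, at 0.52 (adjusted p = 0.000109) and 0.51 (adjusted p = 0.000197), and so did the change in knockout cells (0.49, adjusted p = 0.00422), which was 0.35 ± 0.31 on the deposited values (adjusted p = 0.868). Without the narrow reporter arrays Smurf1 passed in neither fraction, at 0.53 (adjusted p = 0.185) in hCD2-negative and 0.42 (adjusted p = 0.152) in hCD2-positive cells.

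Bambi encodes a membrane protein like a type I receptor that lacks the kinase and damps signalling. It was 6.68, 6.97, 6.93, 6.84 and 7.05 in untreated, 6.85, 7.04, 7, 6.84 and 7.06 in hCD2-negative and 7.83, 7.16, 6.49, 7.15 and 7.20 in hCD2-positive reporter cells. All hCD2-positive values but that of narrow replicate 3 lay above the untreated range, and replicate 1 stood highest. The changes of 0.06 ± 0.16 and 0.27 ± 0.16 did not pass (adjusted p = 0.811 and 0.316). Without hCD2-positive replicate 3 the second passed (0.45, adjusted p = 0.0327), and after quantile normalization both did, at 0.40 (adjusted p = 0.023) and 0.44 (adjusted p = 0.0135). Without the narrow reporter arrays the change in hCD2-negative cells did not pass (0.16, adjusted p = 0.731), while that in hCD2-positive cells did (0.45, adjusted p = 0.045). In knockout cells Bambi was 7.24, 6.98 and 7.14 untreated and 7.26, 7.33 and 7.44 with TGFB. The groups did not overlap, and 5.26% of all genes were likewise higher without overlap there. Bambi differed by 0.22 ± 0.21 (adjusted p = 0.883), and by 0.33 after quantile normalization without passing (adjusted p = 0.234).

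Ltbp3, whose product holds latent TGFB and helps its secretion, was 6.57 to 6.80 in untreated replicates 1 to 4 and 7.57 in replicate 5. It was 6.47 to 6.85 in hCD2-negative and 6.34 to 6.90 in hCD2-positive cells, from just below to just above the range of those 4. Its changes were -0.18 ± 0.12 and -0.28 ± 0.12 (adjusted p = 0.291 and 0.133), and -0.14 ± 0.15 in knockout cells (adjusted p = 0.919), where it was 7.51 to 7.71 untreated and 7.46 to 7.54 with TGFB. Klf10, a Krüppel-like factor named as a TGFB-inducible early gene, showed no change past the threshold in any comparison on either scale. Klf10 was 7.25 to 7.59 in untreated, 6.33 to 7.47 in hCD2-negative and 6.54 to 7.66 in hCD2-positive reporter cells, and 7.37 to 8.23 untreated and 7.42 to 7.95 with TGFB in knockout cells. Its changes were -0.29 ± 0.22 in hCD2-negative, -0.12 ± 0.22 in hCD2-positive and 0.06 ± 0.28 in knockout cells (adjusted p = 0.367, 0.769 and 0.993). After quantile normalization the sign turned, without a call, for Klf10 in hCD2-positive (0.13) and hCD2-negative cells (0.04) and for Ltbp3 in hCD2-negative cells (0.12).

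Over the whole set, 2 of 10 members were called in hCD2-positive against untreated cells, both lower, where 11.6% of all genes were called and 9.66% called lower. In hCD2-negative against untreated cells 1 of 10 was called, lower, against 18.9% of all genes and 16.9% called lower. These shares are near the background. After quantile normalization 6 of 10 were called in hCD2-positive cells (17.8% of all genes), 4 higher and 2 lower, where 8.39% and 9.36% of all genes were. In hCD2-negative cells 5 of 10 were called (22.9% of all genes), 4 higher and 1 lower, where 11.3% and 11.6% were. Between the fractions 0 of 10 passed (0.155% of all genes, with 2 members at an unadjusted p under 0.05, as 4.17% of all genes were), and 1 of 10 after quantile normalization (0.915%). In knockout cells 0 of 10 passed (2.75% of all genes, with 2 members at an unadjusted p under 0.05, as 11.3% were), and 4 of 10 after quantile normalization, all higher (10.8% of all genes called, 5.77% higher). The responses of the reporter fractions minus that of knockout cells gave 0 members for hCD2-positive (0.00% of all genes, with 2 members at an unadjusted p under 0.05, as 2.52% were) and 0 for hCD2-negative cells (0.00673%, with 1 member, as 3.70% were). The comparisons of the fractions with untreated cells share those untreated arrays. The median change of the 10 members was -0.05, -0.17 and 0.26 in hCD2-positive, hCD2-negative and knockout cells, beside -0.07, -0.09 and -0.03 for all genes.

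The genes whose pattern was most like that of the called members were sought over the 15 reporter arrays, by the root mean square difference of log2 values after each gene's mean in each study was taken off. For Tgfb1 these were Nubp1, an iron-sulfur cluster assembly factor, and Pgd, an enzyme of the pentose phosphate pathway. Their differences from Tgfb1 were 0.126 and 0.13, where the values of Tgfb1 itself varied by 0.578. Nubp1 changed by -0.70 in hCD2-positive and -0.93 in hCD2-negative cells, and Pgd by -0.88 and -1.11. For Tgfbr3 they were Dzip1, a protein of primary cilia, and Hic1, a transcriptional repressor, at 0.248 and 0.262 where Tgfbr3 varied by 0.425. Dzip1 differed from untreated cells by -0.75 in hCD2-positive and 0.05 in hCD2-negative cells, and Hic1 by -0.80 and -0.45. After quantile normalization these 4 genes ranked 7, 12, 16 and 7 for their member.

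Among genes that hold or release latent TGFB, 2 of 10 measured were lower in each reporter fraction and 0 higher, where 9.66% of all genes were lower in hCD2-positive and 16.9% in hCD2-negative cells. Itgav, the integrin alpha V chain that activates latent TGFB, fell by 1.30 in hCD2-positive (adjusted p = 0.00347) and by 1.49 in hCD2-negative cells (adjusted p = 0.000766). Nrros, which tethers latent TGFB on myeloid cells, fell by 0.76 (adjusted p = 0.0356) and by 1.01 (adjusted p = 0.00434). In knockout cells 0 passed, with Itgav at -1.25 (adjusted p = 0.0643), and 2 of 10 were called lower after quantile normalization, Itgav (-1.12, adjusted p = 1.93e-05) and Nrros (-0.51, adjusted p = 0.0472). After that normalization 10.8% of all genes were called either way in knockout cells, and 5.77% were called higher. The list's median change was 0.01, -0.11 and -0.10 in the 3 comparisons of TGFB with untreated cells.

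Among 10 other receptors and co-receptors of the family, 2 rose and 1 fell in hCD2-positive, 1 rose and 1 fell in hCD2-negative, and 2 rose in knockout cells. Of all genes, 11.6%, 18.9% and 2.75% were called in these comparisons in either direction. Acvr2a, an activin type II receptor, rose by 1.43 (adjusted p = 0.00573), 1.90 (adjusted p = 0.000389) and 1.62 (adjusted p = 0.0384) in that order. Bmpr2, the type II receptor for bone morphogenetic proteins, rose by 0.96 in hCD2-positive (adjusted p = 0.00893) and by 1.25 in knockout cells (adjusted p = 0.0241), and was 0.49 higher in hCD2-negative cells without passing (adjusted p = 0.142), which it did after quantile normalization (0.89, adjusted p = 3.81e-05). Eng, the endoglin co-receptor related to betaglycan, fell by 0.40 in hCD2-positive cells (adjusted p = 0.0203), a call lost after quantile normalization (-0.07, adjusted p = 0.84). Bmpr1a, a type I receptor, fell by 0.89 in hCD2-negative cells (adjusted p = 0.022). The list's median change was 0.05, 0.00 and 0.02. After quantile normalization 3, 4 and 3 genes were called higher and 0, 1 and 0 lower. Of all genes, 8.39%, 11.3% and 5.77% were then called higher, and 17.8%, 22.9% and 10.8% either way.

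Among 12 measured regulators of TGFB receptors, hCD2-positive cells had 1 that fell, hCD2-negative cells 5 and knockout cells 1, and 0 rose, beside 9.66% and 16.9% of all genes that fell in the reporter comparisons and 2.75% called either way in knockout cells. Nedd4l, a ubiquitin ligase of the same family as the Smurf proteins, fell in all 3, by 0.95 (adjusted p = 0.00319), 1.27 (adjusted p = 0.00017) and 0.96 (adjusted p = 0.0452). In hCD2-negative cells Fkbp1a, which holds the type I receptor inactive, fell by 1.39 (adjusted p = 0.00428). Uchl5, a deubiquitinase, fell there by 1.09 (adjusted p = 0.0103), and Ppp1r15a, a phosphatase subunit, by 0.93 (adjusted p = 0.0189). Strap, the remaining gene of the 5, fell by 0.78 (adjusted p = 0.0386). After quantile normalization Ppp1r15a (-0.44, adjusted p = 0.124) and Strap (-0.27, adjusted p = 0.0898) missed the threshold in hCD2-negative cells and passed it in knockout cells (-0.92, adjusted p = 0.0271, and -0.53, adjusted p = 0.0224), where their deposited changes were -1.04 and -0.66 (adjusted p = 0.137 and 0.473). The list's median change was -0.48, -0.54 and -0.30, and after quantile normalization -0.18, -0.14 and -0.19 with 1, 3 and 3 genes called lower. Of all genes, 9.36% and 11.6% were then called lower in hCD2-positive and hCD2-negative cells. In knockout cells 10.8% were called either way and 5.77% higher.

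Of the 8 SMAD genes, 2 rose in hCD2-positive cells, 1 rose and 1 fell in hCD2-negative cells, and 1 rose in knockout cells, where 11.6%, 18.9% and 2.75% of all genes were called either way. Smad7, the inhibitory SMAD that brings Smurf proteins to the receptor, rose by 1.10 (adjusted p = 0.00656), 1.05 (adjusted p = 0.00638) and 1.26 (adjusted p = 0.0407). Smad5, which carries bone morphogenetic protein signals, rose by 0.46 in hCD2-positive cells (adjusted p = 0.0358). Smad3, which carries the TGFB signal, fell by 1.30 in hCD2-negative cells (adjusted p = 0.000138) and was -0.39 in hCD2-positive cells without passing (adjusted p = 0.219). The fractions differed in Smad3 by 0.91 on the deposited values (hCD2-positive minus hCD2-negative, adjusted p = 0.0766) and by 0.77 after quantile normalization, which passed (adjusted p = 0.00131). Quantile normalization also brought Smad5 past the threshold in hCD2-negative (0.64, adjusted p = 6.45e-05) and knockout cells (0.57, adjusted p = 0.00411), from 0.24 and 0.43 on the deposited values, and Smad3 in knockout cells (-0.67, adjusted p = 0.00424), from -0.79. The list's median change was -0.04, -0.02 and -0.05. After quantile normalization 3 genes were called higher in each comparison of TGFB with untreated cells, and 0, 1 and 1 lower. Of all genes, 8.39%, 11.3% and 5.77% were then called higher, and 17.8%, 22.9% and 10.8% either way.

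Of 8 nuclear and feedback inhibitors, 3 rose in hCD2-positive cells, 2 rose and 1 fell in hCD2-negative cells, and 1 rose in knockout cells, beside the same 11.6%, 18.9% and 2.75% of all genes. Ldlrad4, a membrane protein that keeps SMAD proteins from the receptor, rose by 2.65 (adjusted p = 2.16e-06), 2.40 (adjusted p = 3.99e-06) and 2.81 (adjusted p = 5.9e-05). Skil, the SMAD co-repressor SnoN, rose by 0.94 (adjusted p = 0.0315) and 0.81 (adjusted p = 0.0473) in the reporter fractions, and was 1.06 higher in knockout cells without passing (adjusted p = 0.149), which it did after quantile normalization (1.23, adjusted p = 5.79e-05). Tgif1, a co-repressor, rose by 1.02 in hCD2-positive cells (adjusted p = 0.00814), and its relative Tgif2 fell by 0.73 in hCD2-negative cells (adjusted p = 0.00262). After quantile normalization Tgif2 missed the threshold there (-0.40, adjusted p = 0.0544), while Tgif1 passed in hCD2-negative (0.75, adjusted p = 0.0059) and knockout cells (1.07, adjusted p = 0.00454), from 0.56 and 0.88 on the deposited values. The list's median change was 0.18, -0.01 and 0.34, and after quantile normalization 0.53, 0.49 and 0.49 with 5, 4 and 4 genes called higher. Of all genes, 8.39%, 11.3% and 5.77% were then called higher. Between the fractions 0 genes of the 5 lists passed on the deposited values.

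**Figure D4:**
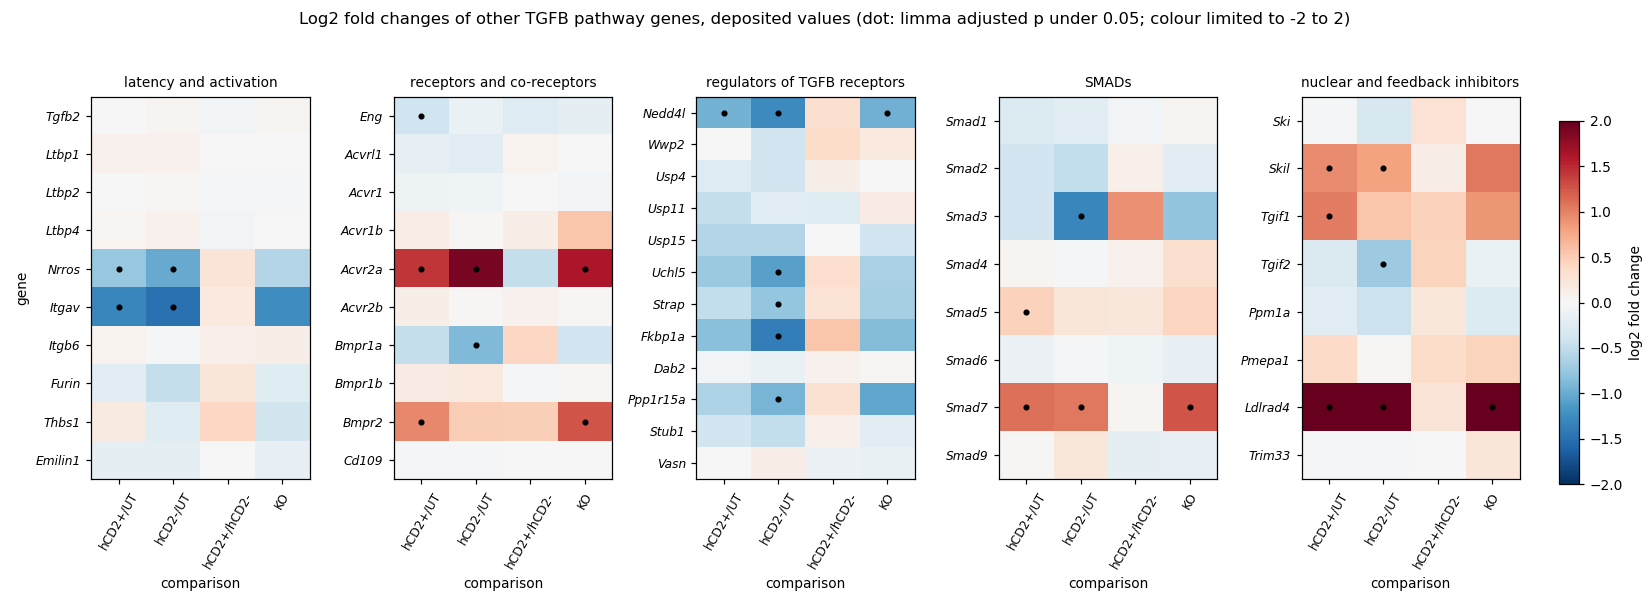
Log2 fold changes (colour, limited to -2 to 2) on the deposited values of the measured genes of 5 further lists of the TGFB pathway (rows) in 4 comparisons (columns: UT untreated, KO knockout TGFB against untreated), with a dot where the limma adjusted p was under 0.05. Ldlrad4, Smad7 and Acvr2a carry a dot and are higher in each comparison of TGFB with untreated cells, and Nedd4l carries a dot and is lower in each, while no gene carries a dot between the fractions.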

How the data were processed

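The deposited log2 values, for 23332 transcript clusters on 21 arrays, are RMA summaries that the authors made with Affymetrix Expression Console 1.2 and build mm8, per the submitters' processing notes. Of these, 14996 clusters carried 1 symbol in the platform annotation, 1019 several and 7317 none. The highest-mean cluster was kept for the 135 genes with several, which left 14860 genes. The number of arrays limits the precision.

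The 10 members, the pathway and marker lists and the naming rule were chosen with earlier results of these data known. The text names the members, and per list up to 4 genes with the smallest p in a comparison. Strap, outside this rule, was named after its values were seen to complete a count. Per member called in reporter cells, the 2 genes of most similar pattern are named, without predicted genes.

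Tests were 2-sided and made with limma 3.58.1 (R 4.3.3) in 1 fit of all 21 arrays, with 5 group means, a study term and 6 contrasts. P-values were adjusted by Benjamini-Hochberg over the 14860 genes, with a call under 0.05. Values after ± are standard errors unless given as SD. Fits were checked on simulated data with independent noise for each gene and array. That check holds no array-wide effect and so says nothing on the narrow arrays. Alternatives were another scaling, model, filter, set of clusters or set of arrays. Replicate numbers were not taken to pair samples.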

Additional observations from a re-analysis of the deposited data

Results flagged for a closer look

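In the groups of 5, the gap between the most extreme array and its nearest neighbour was compared with the range of the group for 30 combinations of member and group, and 3 stood out. Chance flags about 1 in 20. Smurf1 was lowest in the narrow hCD2-positive replicate 3, at 7.20, with a gap of 0.853 of the range. Ltbp3 and Klf10 were both highest in untreated reporter replicate 5, at 7.57 (a gap of 0.77) and 7.59 (0.765). Tgfb3 was also highest in that array, at 7.45, and Tgfb1 lowest among untreated cells, at 9.56.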

How the results depend on the processing

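Of the 10 members, 2 were called in hCD2-positive and 1 in hCD2-negative against untreated cells, 0 between the fractions and 0 in knockout cells. Quantile normalization of all arrays gave 6, 5, 1 and 4, as did quantile normalization within each genotype, an alternative chosen after seeing the data. Leaving out all narrow arrays, also chosen after seeing the data, gave 4, 3, 1 and 1, and leaving out the narrow reporter arrays 4 in hCD2-positive and 2 in knockout cells. In hCD2-negative cells the latter gave 1 call, Tgfbr2 higher in place of Tgfb1 lower. Centring arrays on their medians gave 3 in hCD2-positive cells, 2 in hCD2-negative cells and 1 each between the fractions and in knockout cells. In hCD2-positive cells the count was 0 without the study term and in either study alone, and 1 with all clusters tested or the compared groups alone. In hCD2-negative cells it was 2 without the dimmest genes or with the compared groups alone, and 0 in study 2 alone. In knockout cells it was 1 without the dimmest genes. Outside single omissions, calls over all genes are given here only for the deposited and the quantile-normalized values. The counts given here for the other settings do not show whether the members moved apart from all genes. The cause of these moves was not tested.

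On omission of each array in turn the counts were 1 to 3, 1 to 2, 0 to 0 and 0 to 1, and for the 2 response differences 0 to 0. The calls over all 14860 genes moved as well, from 1218 to 2065, 1817 to 3999, 15 to 88 and 221 to 623 in the same order. Where an omission left fewer arrays in a group, the fit pooled the spread of all groups. Same-numbered arrays of untreated and TGFB reporter groups had correlations of deviations from -0.37 to -0.01, those of the 2 TGFB fractions from -0.30 to 0.71, with 4 of 5 over 0.1, and those of knockout groups from -0.18 to 0.58, with 2 of 3. Since no set had every pair over 0.1, the numbers were not taken as pairs. The labels do not settle this, and the 2 TGFB fractions may still be paired by number. With the replicate block in place of study, 2 members were called in hCD2-negative cells (Tgfbr2, adjusted p = 0.0295, beside Tgfb1) and 1 in knockout cells (Smurf2, adjusted p = 0.00714). In that fit Tgfbr3 did not pass between the fractions (hCD2-positive minus hCD2-negative -0.69, adjusted p = 0.17). Outside single omissions, 750 values of members were recomputed, 0 called values changed sign, 13 lost and 49 gained a call, and 64 values changed sign without a call on either side. Other clusters of a member gave no value, since each has 1 cluster. The narrow arrays limit the smaller changes.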
